A study of Mus musculus with 15 samples.

Results

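The nuclear-encoded subunits of the mitochondrial respiratory chain were followed through a short interleukin-3 (IL-3) stimulation, with and without loss of Stat5, in Ba/F3-beta cells. Members were all probe sets annotated to 1 gene whose symbol starts with Nduf, Uqcr, Cox4 to Cox8 or Atp5, or is Sdha, Sdhb, Sdhc, Sdhd, Cyc1 or Cycs. This took in 148 of 36701 probe sets, or 82 of 15964 named genes. Ba/F3 is a mouse pro-B cell line that depends on IL-3, a cytokine whose receptor activates the kinase JAK2 and the transcription factors STAT5A and STAT5B. The 5 conditions all shared the same cell line and an siRNA transfection: control (scrambled) siRNA without IL-3, Stat5 siRNA (against Stat5a and Stat5b together) and control siRNA with IL-3 for 30 min, and Stat5 siRNA and control siRNA with IL-3 for 2 h. Each condition was hybridised to 1 array of each of the 3 murine U74 designs (U74A, U74B and U74C), 15 arrays in all. Stat5 siRNA without IL-3 was not analysed here. With 1 array per condition and design there is no replicate, so no comparison has a test or a p-value.

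The respiratory chain sits in the inner mitochondrial membrane. Complexes I (NADH dehydrogenase) and II (succinate dehydrogenase) pass electrons to coenzyme Q, complex III passes them to cytochrome c, and complex IV (cytochrome c oxidase) passes them to oxygen. The proton gradient that complexes I, III and IV build drives complex V, the ATP synthase. Most subunits are encoded in the nucleus, and their promoters are known for sites of NRF1, of the ETS factor GABPA and of YY1.

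Values are MAS5 signals, a linear intensity per probe set, and ratios are given on the log2 scale. A probe set counted as measured where at least 1 of the 2 arrays compared reached a floor of 119.9. Lower signals were raised to that floor, so ratios marked "at least" are bounds. The value of a gene is the median over its measured probe sets, and signals are never set against those of another probe set. The spread between probe sets of the same gene on the same arrays, as the SD of a single log2 ratio over all genes, was 0.27 for 30 min of IL-3 over no IL-3, 0.34 for 2 h over no IL-3, 0.24 for Stat5 siRNA over control siRNA at 30 min and 0.27 at 2 h. That spread was taken over probe sets not marked for possible cross-hybridisation. It covers measurement and probe differences and leaves out the spread between cultures.

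Of the 82 genes, 70 reached the floor on at least 1 array: 29 of 32 complex I subunits, 6 of 7 complex I assembly factors (the Ndufaf genes), all 4 complex II subunits, all 8 complex III subunits, cytochrome c (Cycs), 10 of 16 complex IV subunits and 12 of 14 complex V subunits. The 12 genes under the floor in all 5 conditions were Ndufa1, Ndufa10, Ndufaf2, Ndufc2, Cox6a2, Cox6b1, Cox6b2, Cox7a1, Cox8a, Cox8b, Atp5g1 and Atp5pb. Among paired isoforms, the widely expressed Cox6a1 and Cox7a2 were measured, while the heart and skeletal muscle forms Cox6a2, Cox7a1 and Cox8b stayed under the floor, with highest signals of 15.7, 9.34 and 52.3. The widely expressed Cox6b1 and Cox8a stayed under it too, at up to 74.2 and 9.02. Cox8c and Cox7b2, forms known from human testis, gave dim signals near the floor. The c-ring subunit of complex V was measured through Atp5g2, as Atp5g1 stayed at or under 54.8. Members without a ratio are not counted in what follows.

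The siRNA targets were lower on their measured probe sets. The brighter Stat5a probe set gave 277 with Stat5 siRNA, against 548 with control siRNA at 30 min, and 255 with Stat5 siRNA against 475 with control siRNA at 2 h. The measured Stat5b probe set gave 166 with Stat5 siRNA against 499 with control siRNA at 30 min and 126 with Stat5 siRNA against 177 with control siRNA at 2 h, with 536 in control cells without IL-3, so the control signal itself was low at 2 h. Of the pro-B and B lineage markers 5 of 16 reached the floor. These were Cd79b, Ptprc and the IL-3 receptor chains Il3ra, Csf2rb and Csf2rb2, and the other markers of that list stayed under it. The list had a summed signal of 8357 with Stat5 siRNA and 12443 with control siRNA at 30 min. It was 11550.3 with Stat5 siRNA and 12579 with control siRNA at 2 h, and 10928 without IL-3. None of 6 T and NK markers reached the floor. Of the erythroid and megakaryocyte markers 5 of 6 did (Epor, Gp9, Hba-a1, Itga2b, Klf1), with a summed signal of 6150 with Stat5 siRNA and 4296 with control siRNA at 30 min, 5838 with Stat5 siRNA and 3688 with control siRNA at 2 h, and 4724 without IL-3. The myeloid and mast list had 1 of 10 genes at the floor (Cd68), the fibroblast and epithelial list 3 of 8, and the heart and skeletal muscle list 2 of 8 (Actc1 and Ckm). The part of these markers in the ratios below was not tested, and in bulk RNA fewer cells of a type and less RNA per cell cannot be told apart.

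The promoters of 67 member genes could be matched to RefSeq sequence on GRCm38.p6, from 250 bases before to 50 bases after the annotated start. The NRF1 motif GCATGCGC was found, on either strand and counting overlapping matches, in 12 of the 67 (17.9%), against 3.61% of the promoters of 17492 protein-coding genes. The ETS motif CCGGAAG was found in 17 members (25.4%), against 11.9% of protein-coding promoters, and the YY1 motif AAGATGGC in 9 members (13.4%), against 3.22%. The E-box CACGTG was in 5 members (7.46%) and 7.9% of protein-coding promoters. The STAT motif TTCNNNGAA was in 5 members (7.46%), against 7.83%. In the same windows, 65 mitochondrial ribosomal protein genes held the NRF1 motif in 7.69%, the ETS motif in 35.4% and the YY1 motif in 18.5%. At least 1 of the NRF1, ETS and YY1 motifs was found in 32 member promoters. A match is a run of letters and no evidence of binding. The 250 upstream bases of 5 members are printed. Ndufaf4 and Cycs, which were highest at 2 h of IL-3, and Atp5o and Atp5j, which were lower with Stat5 siRNA at 2 h, carry results below. Cox6a1, a complex IV gene, is shown for its NRF1 and ETS matches and not for its ratios. Each sequence is written 5′ to 3′ on the strand of the gene, with matches to the 5 motifs in capitals.
Ndufaf4, chr4:24897833-24898082, plus strand: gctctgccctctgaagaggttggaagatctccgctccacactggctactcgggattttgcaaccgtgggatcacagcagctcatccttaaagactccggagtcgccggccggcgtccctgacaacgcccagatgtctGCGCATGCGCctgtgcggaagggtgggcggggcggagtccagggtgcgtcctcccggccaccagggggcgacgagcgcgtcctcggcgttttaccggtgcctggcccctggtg
Cycs, chr6:50566570-50566819, minus strand: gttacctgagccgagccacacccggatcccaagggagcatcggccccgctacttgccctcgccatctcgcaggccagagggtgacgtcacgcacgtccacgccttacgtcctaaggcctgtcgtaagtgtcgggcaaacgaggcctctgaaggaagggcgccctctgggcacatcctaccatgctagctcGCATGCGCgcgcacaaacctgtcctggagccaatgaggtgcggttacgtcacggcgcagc
Cox6a1, chr5:115348959-115349208, minus strand: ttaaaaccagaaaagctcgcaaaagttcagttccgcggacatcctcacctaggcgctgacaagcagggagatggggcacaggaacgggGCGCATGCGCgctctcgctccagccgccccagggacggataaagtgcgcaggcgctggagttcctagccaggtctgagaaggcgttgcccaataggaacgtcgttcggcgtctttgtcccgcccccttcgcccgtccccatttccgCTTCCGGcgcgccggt
Atp5o, chr16:91931631-91931880, minus strand: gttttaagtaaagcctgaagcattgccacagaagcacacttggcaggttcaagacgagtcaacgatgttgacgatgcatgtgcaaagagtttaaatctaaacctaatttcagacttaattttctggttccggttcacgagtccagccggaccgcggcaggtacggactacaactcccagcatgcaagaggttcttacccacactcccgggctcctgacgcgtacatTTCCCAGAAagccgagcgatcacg
Atp5j, chr16:84835626-84835875, minus strand: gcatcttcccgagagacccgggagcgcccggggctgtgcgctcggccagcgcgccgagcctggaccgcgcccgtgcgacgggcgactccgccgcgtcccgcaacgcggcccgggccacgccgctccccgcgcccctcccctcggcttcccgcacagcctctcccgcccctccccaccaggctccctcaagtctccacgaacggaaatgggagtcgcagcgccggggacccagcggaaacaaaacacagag
The capitals in Ndufaf4 and Cycs are NRF1 matches, with 3 matches in the 300-base window of Ndufaf4 and 1 in that of Cycs. The other members with an NRF1 motif did not share their values. Their log2 ratios at 2 h of IL-3 over no IL-3 in control cells lay between -0.21 (Cox6a1) and 0.05 (Atp5g2). Those of Ndufaf5 and Ndufa6 rest on bounds. Cox6a1 shows NRF1 matches and, close to its start, an ETS match. The capitals in Atp5o are its STAT motif, which begins 24 bases before the start. The other members with a STAT motif were Ndufa8, Ndufb6, Atp5d and Atp5pb. With Stat5 siRNA at 2 h the log2 ratio was 0.01 for Ndufa8, -0.07 for Ndufb6, -0.21 for Atp5d and -0.36 for Atp5o, and Atp5pb was not measured. Any link between motif and ratio was not tested. Atp5j held none of the 5 motifs in this window.

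Respiratory chain signals moved within a narrow range over the 5 conditions. Over 84 member probe sets whose mean log2 signal was at or above the floor, the highest signal was 1.25 times the lowest in the median, with a range of 1.04 to 5.92. In 82.1% of them the highest was under 1.5 times the lowest, against 55.4% of all 12215 such probe sets, whose median was 1.46. The members were not matched to the other probe sets by signal size, and the part of brightness in this difference was not tested. The condition without IL-3 gave the highest signal for 38 of the 84 (45.2%), against 22.5% of all probe sets. That count was 34 when arrays were scaled to their medians and 33 after quantile normalization. Cells with Stat5 siRNA at 2 h gave the lowest signal for 22 (26.2%), against 22.6% of all probe sets. At 30 min of IL-3, cells with Stat5 siRNA and cells with control siRNA each gave the lowest signal for 20 (23.8%), against 16.5% and 16.7% of all probe sets.

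**Figure D1:**
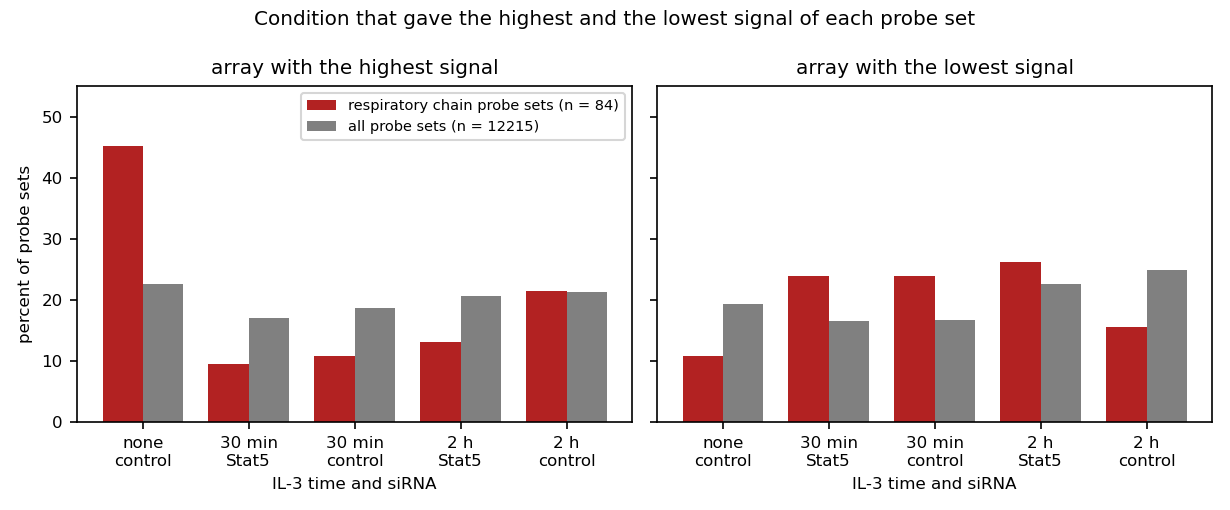
Percent of probe sets (vertical axis) for which each of the 5 conditions gave the highest signal (left) or the lowest signal (right), for 84 respiratory chain probe sets and for all 12215 probe sets with a mean log2 signal at or above the floor. The condition without IL-3 holds 45.2% of the members' highest signals and 22.5% of those of all probe sets.

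After 30 min of IL-3 in control siRNA cells, respiratory chain signals were slightly lower than without IL-3. Of 68 measured genes 51 had a ratio below 0 (75.0%), against 51.0% of all 8155 genes, and the median log2 ratio was -0.08, against -0.01 for all genes. Under the 10 alternative settings the share below 0 lay between 72.0% and 80.3%. The size was small: 1 member was 1.5-fold or more lower (Uqcrc2), where 2.37% of all genes were, and 1 was 1.5-fold or more higher (Atp5j2), where 2.97% were. None passed 2-fold in either direction, where 0.711% of all genes were higher and 0.343% lower. The lean was not particular to the members. Below 0 lay 11 of 16 mitochondrial biogenesis regulators (68.8%, median -0.05), 16 of 24 protein import genes (66.7%, -0.12) and 38 of 64 mitochondrial ribosomal proteins (59.4%, -0.03). The TCA cycle and pyruvate dehydrogenase list had 6 of 19 below 0 (31.6%, 0.05), and the coenzyme Q list 7 of 16 (43.8%, 0.01). Cells with Stat5 siRNA at 30 min, set against the same arrays without IL-3, had 51 of 69 members below 0 (73.9%, median -0.09), against 50.8% of all genes. As both of these ratios divide by the same arrays, the lower values cannot be told apart from high signals on the arrays without IL-3.

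By complex, most genes of I, III, IV and V lay below 0 at 30 min. All 8 complex III subunits were below 0 (median -0.12), as were 22 of 29 complex I subunits (median -0.12) and 9 of 12 complex V subunits (median -0.07). All 8 complex III subunits were also below 0 with median scaling and with quantile normalization. Complex IV had 7 of 9 below 0 with a median of -0.04, and complex II was balanced with 2 of 4. The complex I assembly factors had 3 of 6 below 0 and a median of 0.07. Among them Ndufaf4 was under the floor without IL-3 and Ndufaf5 under it at 30 min, so the sign of each was fixed. In Stat5 siRNA cells at 30 min, against the same arrays without IL-3, complex IV had 8 of 10 below 0 (median -0.20), complex III 7 of 8 (-0.13), complex V 10 of 12 (-0.12) and complex I 21 of 29 (-0.12).

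At 2 h of IL-3 the members as a group lay near the other genes while those had spread apart. Of 69 measured members 42 were below 0 (60.9%, median -0.06), against 53.8% of all 8294 genes (median -0.03). Within 1.2-fold of no IL-3 lay 78.3% of the members, against 52.7% of all genes. At 30 min these shares were alike, at 73.5% and 73.0%. At 2 h the middle 50% of the members ran from -0.16 to 0.05. Of the other gene lists below, 3 were about as narrow: TCA cycle and pyruvate dehydrogenase (-0.10 to 0.14), cytosolic ribosomal proteins (-0.06 to 0.15) and carriers and porins (-0.13 to 0.05). The remaining lists were wider. One member was 1.5-fold or more higher, Ndufaf4, where 7.92% of all genes were, and 2 were 1.5-fold or more lower, Ndufc1 and Ndufv3, where 8.28% were. Ndufaf4 was also the only member past 2-fold, where 2.45% of all genes were higher and 1.63% lower. Complex III stayed low (6 of 8 below 0, median -0.15), and complex I had 21 of 29 below 0 (median -0.06). Complexes IV and V lay near 0, with medians of 0.01 and 0.03 that both took the other sign after quantile normalization, that of complex IV also with median scaling, where all genes had a median of -0.06.

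**Figure D2:**
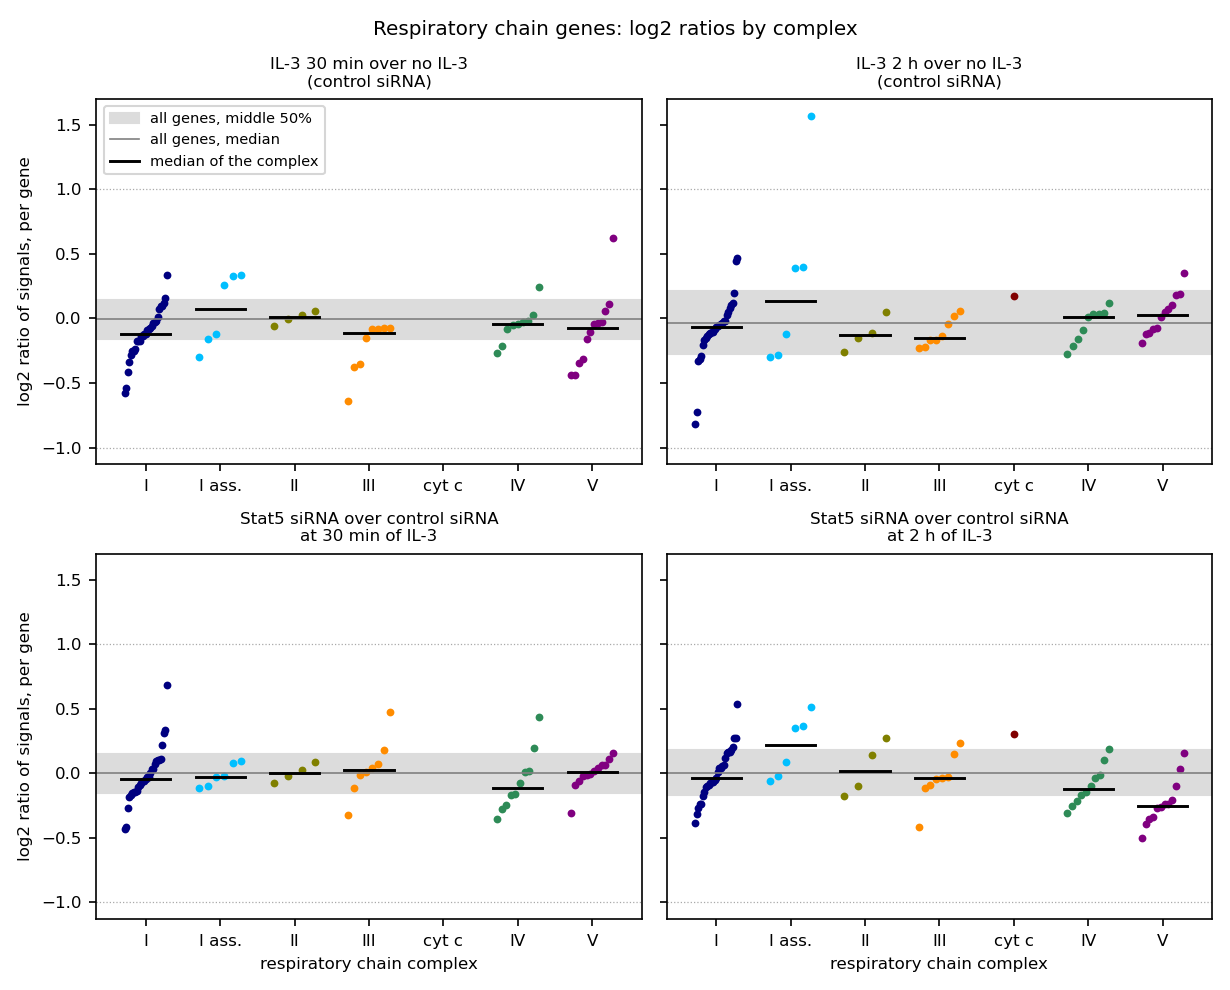
Log2 ratio of each measured respiratory chain gene (points, vertical axis) by complex (horizontal axis; I ass., complex I assembly factors; cyt c, cytochrome c) in 4 comparisons, with the median of each complex as a black bar, the median and middle 50% of all genes in grey, and 2-fold as dotted lines. All 8 complex III genes lie below 0 at 30 min of IL-3, Ndufaf4 is the single point past 2-fold, and 10 of 12 complex V genes lie below 0 with Stat5 siRNA at 2 h.

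Complex I is the largest group. Of its core subunits, which carry the flavin and the iron-sulphur clusters, Ndufv1 and Ndufs8 differed little with IL-3. Ndufv1, which binds NADH, gave 1463 without IL-3, 1744 with Stat5 siRNA and 1633 with control siRNA at 30 min, and 1649 with Stat5 siRNA and 1429 with control siRNA at 2 h. Ndufs8, an iron-sulphur subunit, gave 3321 without IL-3, 3639 with Stat5 siRNA and 3548 with control siRNA at 30 min, and 3562 with Stat5 siRNA and 3814 with control siRNA at 2 h, so its 5 signals lay close together. Ndufs3 was lower with IL-3 in control cells, at 608 after 30 min and 610.3 after 2 h, against 768 without IL-3 (log2 ratios -0.34 and -0.33). With Stat5 siRNA it gave 768 at 30 min, at the level without IL-3, and 663 at 2 h.

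Ndufv3 and Ndufc1, both accessory subunits, were the members lower by 1.5-fold or more at 2 h of IL-3. Ndufv3, an accessory subunit of the flavoprotein module, gave 282 without IL-3, 176 with Stat5 siRNA and 237 with control siRNA at 30 min, and 190.2 with Stat5 siRNA and 170.4 with control siRNA at 2 h. All 4 conditions with IL-3 were below the one without, by 1.65-fold at 2 h in control cells (log2 ratio -0.73). Ndufc1 was read by 2 probe sets that disagreed in size. On U74A it gave 977 after 2 h, against 1115 without IL-3 (log2 ratio -0.19), and on U74C 56.1 after 2 h, against 325 without IL-3 (log2 ratio at least -1.44 in size). The gene value of at least -0.82 in size is the median of these, and the call at 1.5-fold rests on the U74C probe set.

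Ndufb3, an accessory subunit of the membrane arm, lay on opposite sides of its control at the 2 times. Its signal was 1094 without IL-3, 1034 with Stat5 siRNA and 1379 with control siRNA at 30 min, and 1279 with Stat5 siRNA and 879 with control siRNA at 2 h. Stat5 siRNA cells were therefore lower at 30 min (log2 ratio -0.42) and higher at 2 h (0.54). Both ratios were larger than 1 SD of the spread between probe sets. Ndufab1, the mitochondrial acyl carrier protein that is also a complex I subunit, was low in 1 condition on its U74A probe set, which gave 1078 without IL-3, 1035 with Stat5 siRNA and 741 with control siRNA at 30 min, and 1075 with Stat5 siRNA and 1118 with control siRNA at 2 h. On U74C its dim probe set gave 112 without IL-3, 133 with Stat5 siRNA and 61.3 with control siRNA at 30 min, and 132 with Stat5 siRNA and 85.7 with control siRNA at 2 h, with the lowest signal again in control cells at 30 min. Ndufa12, an accessory subunit, gave 244 without IL-3, 373 with Stat5 siRNA and 232 with control siRNA at 30 min, and 317 with Stat5 siRNA and 337 with control siRNA at 2 h. It was the only member 1.5-fold or more higher with Stat5 siRNA at 30 min (1.61-fold). Ndufb1, a small membrane arm subunit, gave 959 without IL-3, 942 with Stat5 siRNA and 1041 with control siRNA at 30 min, and 1049.9 with Stat5 siRNA and 1304 with control siRNA at 2 h, where control cells had the highest signal. Ndufb5, another membrane arm subunit, gave 3259 without IL-3, 2774 with Stat5 siRNA and 3066 with control siRNA at 30 min, and 2943 with Stat5 siRNA and 3010.4 with control siRNA at 2 h, on a probe set that can cross-hybridise.

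Ndufaf4, a complex I assembly factor, stood apart from the other members. Its U74B probe set gave 88.4 without IL-3, 152 with Stat5 siRNA and 144 with control siRNA at 30 min, and 524 with Stat5 siRNA and 356 with control siRNA at 2 h. The U74A probe set gave 39.4 without IL-3, 39.7 with Stat5 siRNA and 30.7 with control siRNA at 30 min, and 167 with Stat5 siRNA and 102 with control siRNA at 2 h. Both probe sets were highest at 2 h, in cells with either siRNA, and higher there with Stat5 siRNA. The gene was at least 2.97-fold higher after 2 h of IL-3 than without in control cells (log2 ratio at least 1.57), which came to 0.57 with the floor doubled. Stat5 siRNA over control siRNA at 2 h gave a log2 ratio of 0.56 on the U74B probe set and of at least 0.48 on the U74A probe set, whose control signal was under the floor.

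The other assembly factors moved less. Ndufaf1 gave 148 without IL-3, 183 with Stat5 siRNA and 186 with control siRNA at 30 min, and 248 with Stat5 siRNA and 195 with control siRNA at 2 h, with every signal under IL-3 above the one without. Ndufaf6 gave 137 without IL-3, 159.6 with Stat5 siRNA and 173 with control siRNA at 30 min, and 173 with Stat5 siRNA and 179.9 with control siRNA at 2 h. Ndufaf3, in contrast, was lower in control cells at 2 h on its U74B probe set (342, against 502 without IL-3) and close to its level without IL-3 on U74C (162 at 2 h against 166). Ndufaf8 gave 1094 without IL-3, 914 with Stat5 siRNA and 981 with control siRNA at 30 min, and 887.0 with Stat5 siRNA and 898 with control siRNA at 2 h, all 4 below its level without IL-3. Ndufaf5 lay around the floor, at 155 with Stat5 siRNA and 107 with control siRNA at 2 h, a log2 ratio of at least 0.37.

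**Figure D3:**
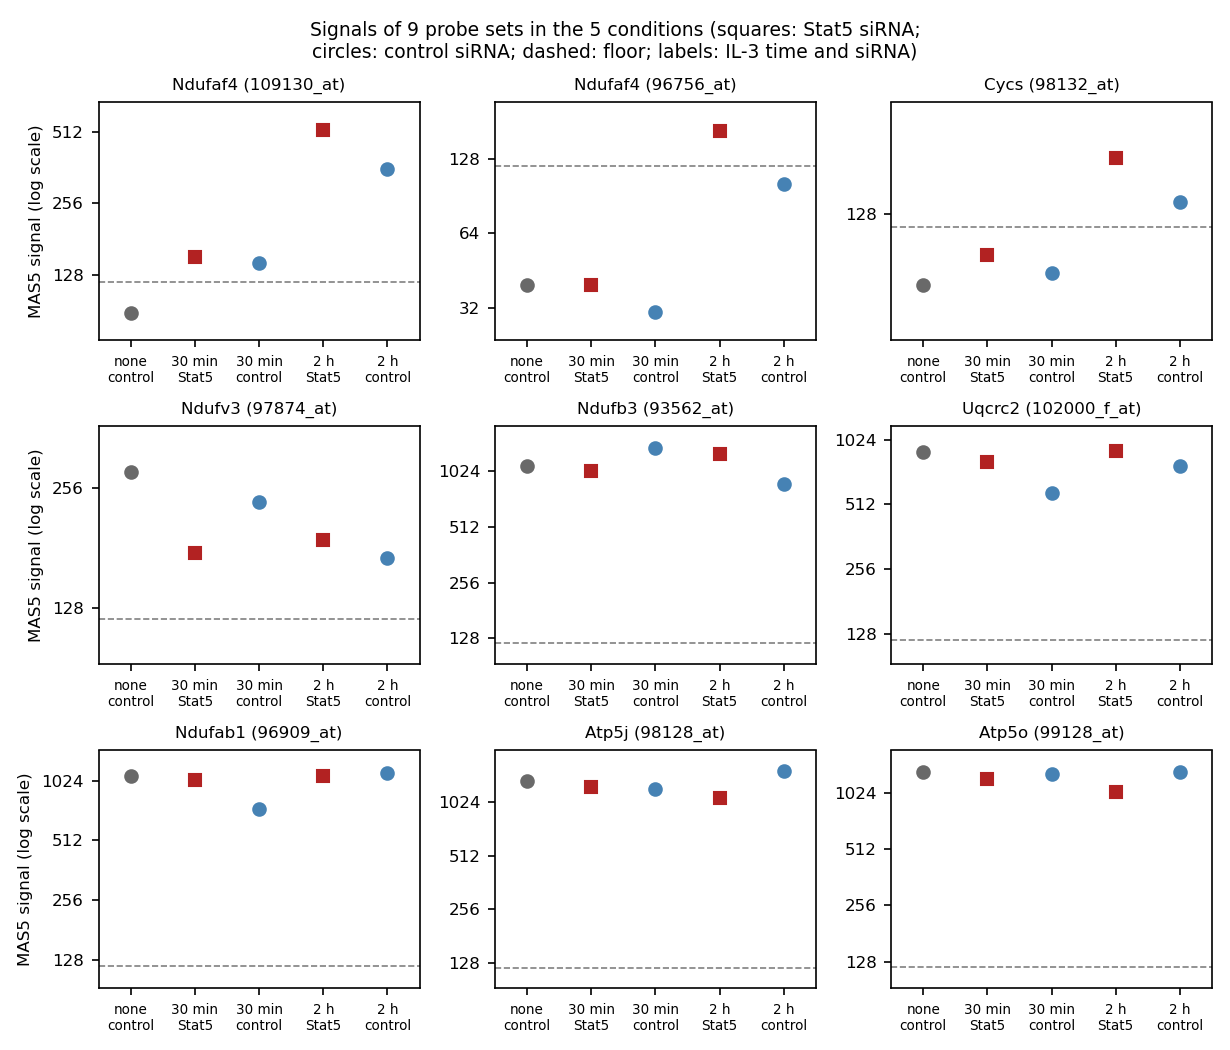
MAS5 signal (vertical axis, log scale) of 9 probe sets in the 5 conditions (horizontal axis, IL-3 time and siRNA), with squares for Stat5 siRNA, circles for control siRNA and the floor of 119.9 as a dashed line; each point is 1 array. Both Ndufaf4 probe sets and Cycs are highest at 2 h of IL-3, and Atp5j is lowest with Stat5 siRNA at 2 h.

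Complex II genes had log2 ratios between -0.26 and 0.27 in the 4 comparisons. Sdha, the flavoprotein that oxidises succinate, gave 167 without IL-3, 174 with Stat5 siRNA and 171 with control siRNA at 30 min, and 169 with Stat5 siRNA and 139 with control siRNA at 2 h. Sdhd, a membrane anchor, gave 1710.0 without IL-3, 1808 with Stat5 siRNA and 1701 with control siRNA at 30 min, and 1479 with Stat5 siRNA and 1586 with control siRNA at 2 h. Sdhc, the other anchor, and the iron-sulphur subunit Sdhb had log2 ratios between -0.18 and 0.14 in the 4 comparisons against no IL-3 or control siRNA. In control cells all 4 subunits were lower at 2 h than at 30 min, with a median of -0.10.

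In complex III the lower values at 30 min were carried by Uqcrc2, Uqcrq and Uqcr11. Uqcrc2, a core protein of the matrix arm, gave 903 without IL-3, 807 with Stat5 siRNA and 581 with control siRNA at 30 min, and 909 with Stat5 siRNA and 772 with control siRNA at 2 h. The control array at 30 min was the low one, 1.55-fold below no IL-3, and its only measured probe set can cross-hybridise. Uqcrq, a small subunit, gave 2527 without IL-3, 2008 with Stat5 siRNA and 1948 with control siRNA at 30 min, and 2079.9 with Stat5 siRNA and 2246 with control siRNA at 2 h, with all 4 conditions under IL-3 below the one without. Uqcr11, another small subunit, gave 1044 without IL-3, 654 with Stat5 siRNA and 817 with control siRNA at 30 min, and 699 with Stat5 siRNA and 931 with control siRNA at 2 h. It was lower with Stat5 siRNA at both times, with log2 ratios of -0.32 and -0.41. Cyc1, the haem protein cytochrome c1, was steady on its bright probe set, at 2833 without IL-3, 2824 with Stat5 siRNA and 2679 with control siRNA at 30 min, and 2692 with Stat5 siRNA and 2753 with control siRNA at 2 h.

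Cytochrome c itself was dim on the single probe set of Cycs. It gave 91.0 without IL-3, 105 with Stat5 siRNA and 96.7 with control siRNA at 30 min, and 167 with Stat5 siRNA and 135 with control siRNA at 2 h. The 2 h signals were the highest and the only ones above the floor, and Stat5 siRNA cells had the higher of the pair. The log2 ratio of 2 h over no IL-3 in control cells was at least 0.18, and that of Stat5 siRNA over control siRNA at 2 h was 0.31. Cycs and the U74B probe set of Ndufaf4 thus shared their order of conditions, which is a description of 2 genes chosen after their values were seen.

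Complex IV genes had log2 ratios between -0.27 and 0.24 after 30 min of IL-3 in control cells and between -0.27 and 0.12 after 2 h. Cox5a gave 9517 without IL-3, 8196 with Stat5 siRNA and 9713 with control siRNA at 30 min, and 8658 with Stat5 siRNA and 9746 with control siRNA at 2 h. Cox6c gave 3004 without IL-3, 2993 with Stat5 siRNA and 2971 with control siRNA at 30 min, and 3074 with Stat5 siRNA and 3101 with control siRNA at 2 h. Cox6a1, whose promoter is printed above, gave 3145 without IL-3, 3027 with Stat5 siRNA and 2945 with control siRNA at 30 min, and 2583 with Stat5 siRNA and 3175 with control siRNA at 2 h on its brighter probe set. Its other measured probe set gave 375 without IL-3, 297.0 with Stat5 siRNA and 298 with control siRNA at 30 min, and 251 with Stat5 siRNA and 276 with control siRNA at 2 h, and both can cross-hybridise. The U74A probe set of Cox7a2 gave 1994 without IL-3, 1577 with Stat5 siRNA and 1658 with control siRNA at 30 min, and 1694 with Stat5 siRNA and 1875 with control siRNA at 2 h, again with its highest signal without IL-3. Cox7a2l gave 881 without IL-3, 972 with Stat5 siRNA and 849.8 with control siRNA at 30 min, and 832 with Stat5 siRNA and 889 with control siRNA at 2 h. Cox7b2 reached the floor in Stat5 siRNA cells alone, at 163 at 30 min and 129 at 2 h. The only measured probe sets of Cox7b2 and of Cox6c can cross-hybridise. Cox4i1, a regulatory subunit, was lower with Stat5 siRNA at both times (log2 ratios -0.36 and -0.25), and its brighter probe set gave 702 with Stat5 siRNA against 1029.7 with control siRNA at 30 min and 552 with Stat5 siRNA against 722 with control siRNA at 2 h. That probe set also gave 1009.5 without IL-3, and its log2 ratios with Stat5 siRNA were -0.55 at 30 min and -0.39 at 2 h. On the dimmer probe set they were -0.16 and -0.12, which is within the spread between probe sets. Both measured Cox4i1 probe sets can cross-hybridise. With Stat5 siRNA 6 of 10 complex IV genes were below 0 at 30 min and 8 of 10 at 2 h (medians -0.12 and -0.12). Of all genes 49.9% and 49.5% were below 0. Cox7b2 is counted here, though its ratio could only lie above 0. Under median scaling the 2 h count came to 5 of 10, with a median of -0.02, where 41.8% of all genes were below 0.

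With Stat5 siRNA at 30 min of IL-3 the members as a whole did not lean to either side. Of 69 measured members 38 were below 0 (55.1%, median -0.02), against 49.9% of all 8124 genes. The share was 79.7% with median scaling, where 59.6% of all genes were below 0, and 49.3% after quantile normalization. One member (Ndufa12) was 1.5-fold or more higher, where 2.07% of all genes were, and none was lower by that size, where 2.33% were. No member passed 2-fold, where 0.308% of all genes were higher and 0.382% lower.

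At 2 h the shift of the whole set also depended on scaling, and complex V was lower. Of 70 measured members 43 were below 0 (61.4%, median -0.06), against 49.5% of all 8132 genes. With median scaling that was 40.0%, against 41.8% of all genes, so the lean of the whole set turned. No member was 1.5-fold or more higher or lower, where 3.37% and 3.15% of all genes were, and none passed 2-fold, where 0.504% and 0.43% were. In complex V 10 of 12 genes were below 0, with a median of -0.25 and a range of -0.50 to 0.16. Over the 10 alternatives the median of complex V lay between -0.29 and -0.15, the smallest size being that of median scaling, where 9 of 12 were below 0. Complexes I and III had medians of -0.03 and -0.04 here, against 0.07 and 0.07 with median scaling, which also moved the median of all genes to 0.05. The assembly factors of complex I had 2 of 6 below 0 and a median of 0.22. Among them Ndufaf5 was under the floor with control siRNA, so its ratio could only lie above 0. Over the 10 alternatives the median of the assembly factors lay between 0.08 and 0.35.

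Of the complex V genes with low ratios at 2 h, Atp5j, coupling factor F6 of the peripheral stalk, gave 1344 without IL-3, 1241 with Stat5 siRNA and 1205 with control siRNA at 30 min, and 1084 with Stat5 siRNA and 1532 with control siRNA at 2 h. The control array at 2 h was its highest and the Stat5 siRNA array at 2 h its lowest, 1.41-fold apart. Atp5md, a small membrane subunit, gave 2736 without IL-3, 2068 with Stat5 siRNA and 2157 with control siRNA at 30 min, and 2195 with Stat5 siRNA and 2874 with control siRNA at 2 h. Its log2 ratio with Stat5 siRNA at 2 h was -0.39, and both arrays at 30 min lay below that of Stat5 siRNA at 2 h. Atp5o, the stalk subunit that confers oligomycin sensitivity, gave 1312.5 without IL-3, 1206 with Stat5 siRNA and 1287 with control siRNA at 30 min, and 1032 with Stat5 siRNA and 1322 with control siRNA at 2 h (log2 ratio -0.36). Atp5e, the epsilon subunit of the central stalk, gave 903 without IL-3, 865 with Stat5 siRNA and 877 with control siRNA at 30 min, and 769 with Stat5 siRNA and 971 with control siRNA at 2 h (log2 ratio -0.34). Atp5mpl, a small membrane subunit, was lower with Stat5 siRNA at both times (log2 ratios -0.31 and -0.26), at 1429 with Stat5 siRNA and 1767 with control siRNA at 30 min, 1542 with Stat5 siRNA and 1851 with control siRNA at 2 h, and 1633 without IL-3. For Atp5o and Atp5e the Stat5 siRNA array at 2 h was the lowest of the 5. The only measured probe sets of Atp5md and of Atp5e can cross-hybridise.

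The alpha subunit and the ring subunit of complex V did not share those lower values. Atp5a1, the alpha subunit of the catalytic head, gave 2823 without IL-3, 2748 with Stat5 siRNA and 2629 with control siRNA at 30 min, and 2745 with Stat5 siRNA and 2688 with control siRNA at 2 h (log2 ratio 0.03). Atp5g2, of the proton-carrying ring, was the highest of the 12 with a log2 ratio of 0.16. Its 2 probe sets gave 433 and 627 with Stat5 siRNA, against 429.8 and 507 with control siRNA, and both can cross-hybridise. Atp5l, the g subunit, was lower at 30 min of IL-3, at 2029 in control cells against 2748 without IL-3 (log2 ratio -0.44), and at 2 h gave 2158 with Stat5 siRNA and 2544 with control siRNA. Atp5d, the delta subunit, had 3 measured probe sets, all open to cross-hybridisation and all below their level without IL-3 in control cells at 30 min, with a median log2 ratio of -0.44. Atp5j2, the f subunit, went the other way at 30 min, at 241 in control cells against 156.5 without IL-3 (1.54-fold), on 1 dim probe set that can cross-hybridise. Without such probe sets it had no value.

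**Figure D4:**
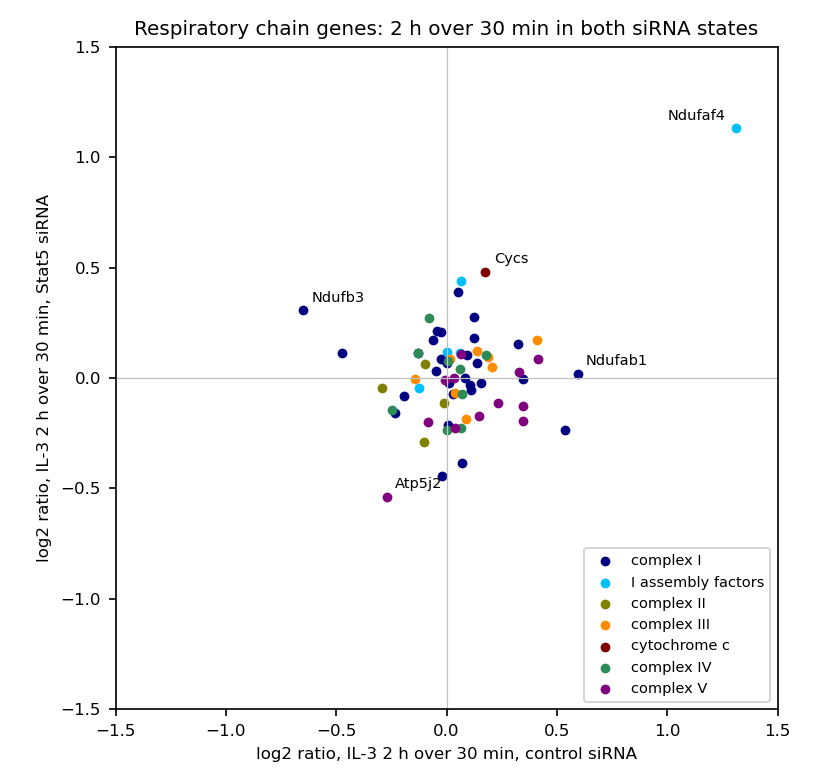
Log2 ratio of 2 h over 30 min of IL-3 for each respiratory chain gene measured in both siRNA states, with control siRNA on the horizontal axis and Stat5 siRNA on the vertical axis, coloured by complex. Ndufaf4 is the single gene past 2-fold on both axes, and 37 of 68 genes have the same sign on both.

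The step from 30 min to 2 h could be read in each siRNA state on separate arrays. In control cells 23 of 68 members were below 0 (33.8%, median 0.05), against 52.4% of all 8234 genes. This lean was not particular to the members. Below 0 lay 21 of 65 mitochondrial ribosomal proteins (median 0.08), 8 of 25 protein import genes (0.25) and 8 of 30 cytosolic ribosomal proteins (0.14). Shares below 0 were larger in the other lists given below, from 41.7% (assembly factors outside the member rule) to 68.8% (interferon response). Ndufaf4 (2.48-fold, from its U74B probe set alone) and Ndufab1 (1.51-fold) were 1.5-fold or more higher, where 6.74% of all genes were, and Ndufb3 (1.57-fold) was lower by that size, where 7.94% were. In Stat5 siRNA cells 33 of 70 were below 0 (47.1%, median 0.02), against 52.8% of all 8247 genes, and the share was 22.9% with median scaling. Ndufaf4 was the only member 1.5-fold or more higher there, where 6.32% of all genes were, and none was lower by that size, where 6.32% were. Its gene value of at least 2.19-fold there includes the U74A probe set, which was under the floor at 30 min. On the U74B probe set the log2 ratio of 2 h over 30 min was 1.79 with Stat5 siRNA and 1.31 with control siRNA. Past 2-fold lay Ndufaf4 alone in both states, where 1.89% of all genes were higher and 1.65% lower in control cells, and 1.64% and 1.19% in Stat5 siRNA cells.

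Members agreed little between these separate arrays. Of 68 members measured in both states 37 had the same sign of 2 h over 30 min (54.4%), against 67.9% of 7924 genes. Across these genes, which share their arrays and are no replicates, Pearson's r was 0.36 for the members and 0.61 for all genes. Without Ndufaf4 it was 0.02, and Spearman's rho over all 68 was 0.09, against 0.53 for all genes. The siRNA ratios at 30 min and at 2 h also came from separate arrays. They had the same sign for 38 of 69 members (55.1%), against 55.9% of 7699 genes, and in complex V for 8 of 12, of which 6 were below 0 at both times.

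Other mitochondrial gene lists are given beside these as a frame, each by its counts at 1.5-fold. The share of all genes past that size was 2.97% higher and 2.37% lower at 30 min of IL-3, and 7.92% higher and 8.28% lower at 2 h. For Stat5 siRNA over control siRNA it was 2.07% higher and 2.33% lower at 30 min, and 3.37% higher and 3.15% lower at 2 h. The 19 measured genes of the TCA cycle and pyruvate dehydrogenase held none that was higher in any of the 4 comparisons and 1 that was lower, Pdk1, a kinase that inhibits pyruvate dehydrogenase, at 2 h of IL-3 (log2 ratio -0.69). Of 65 mitochondrial ribosomal proteins 3 were higher and 3 lower at 2 h of IL-3, with a median of 0.06. Protein import genes held 4 of 25 higher and 1 lower at 2 h. Among them Chchd4, an import factor of the intermembrane space, had a log2 ratio of 1.44, with 1709 in control cells at 2 h against 628 without IL-3 on its U74B probe set. Timm21, a subunit of the inner membrane translocase, was lower, at 159.4 in control cells at 2 h against 401 without IL-3 (log2 ratio -1.33).

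Assembly factors outside the member rule had 2 of 34 higher at 30 min, Cox11 (at least 0.85) and Sco1 (at least 0.67), which both serve copper delivery to complex IV. At 2 h 3 of 35 were higher and 1 was lower, with Sco1 at no less than 0.82, Coa7 at no less than 0.76 and Oxa1l, an inner membrane insertase, at 0.73. Coq10b, a coenzyme Q binding protein, was the 1 gene of 16 in its list higher at 30 min (at least 0.98) and of 15 at 2 h (at least 1.01). Of 14 carriers, porins and related genes 2 were higher at 2 h: Slc25a33, a pyrimidine nucleotide carrier (541 against 111 without IL-3 on its U74B probe set, log2 ratio at least 2.17), and Ppif, cyclophilin D of the permeability pore (276 against 130.2 without IL-3, 1.09). Ppif was higher again with Stat5 siRNA at 2 h (481.5, against 276 with control siRNA, log2 ratio 0.80).

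Among regulators of mitochondrial biogenesis, Myc gave 527 after 30 min of IL-3 in control cells against 39.4 without, a log2 ratio of at least 2.14. At 2 h Myc (at least 1.5) and Tfam (0.82), which drives transcription of mitochondrial DNA, were the 2 higher genes among 19 measured, and 1 was lower. The Tfam probe set can cross-hybridise. The list had a median of 0.10 at 2 h of IL-3, and none of its genes was 1.5-fold higher or lower with Stat5 siRNA at either time. Gabpa, a subunit of the ETS factor named above, gave 204 without IL-3, 180.3 with Stat5 siRNA and 178.5 with control siRNA at 30 min, and 178 with Stat5 siRNA and 160.4 with control siRNA at 2 h.

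Outside the mitochondrion, 3 further lists show the size of other differences on the same arrays. Interferon response genes were 1.5-fold or more higher with Stat5 siRNA in 12 of 19 at 30 min (median 0.82) and in 12 of 20 at 2 h (median 0.71). Cytosolic ribosomal protein genes had 24 of 28 below 0 with Stat5 siRNA at 2 h (median -0.18), beside the -0.25 of complex V. Glycolysis genes had 9 of 12 below 0 there (median -0.25). Of them 2 were 1.5-fold or more lower, a hexokinase gene, Hk1 (log2 ratio -0.91), and a phosphofructokinase gene, Pfkl (-0.77). Another hexokinase gene, Hk2, had a log2 ratio of 0.16 there, and another phosphofructokinase gene, Pfkp, -0.30. At 2 h of IL-3 the glycolysis list had 9 of 14 below 0 (median -0.09), with Pgam1 (-0.64) 1.5-fold or more lower and Slc2a3 (at least 1.19) and Hk2 (0.73) higher by that size.

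**Figure D5:**
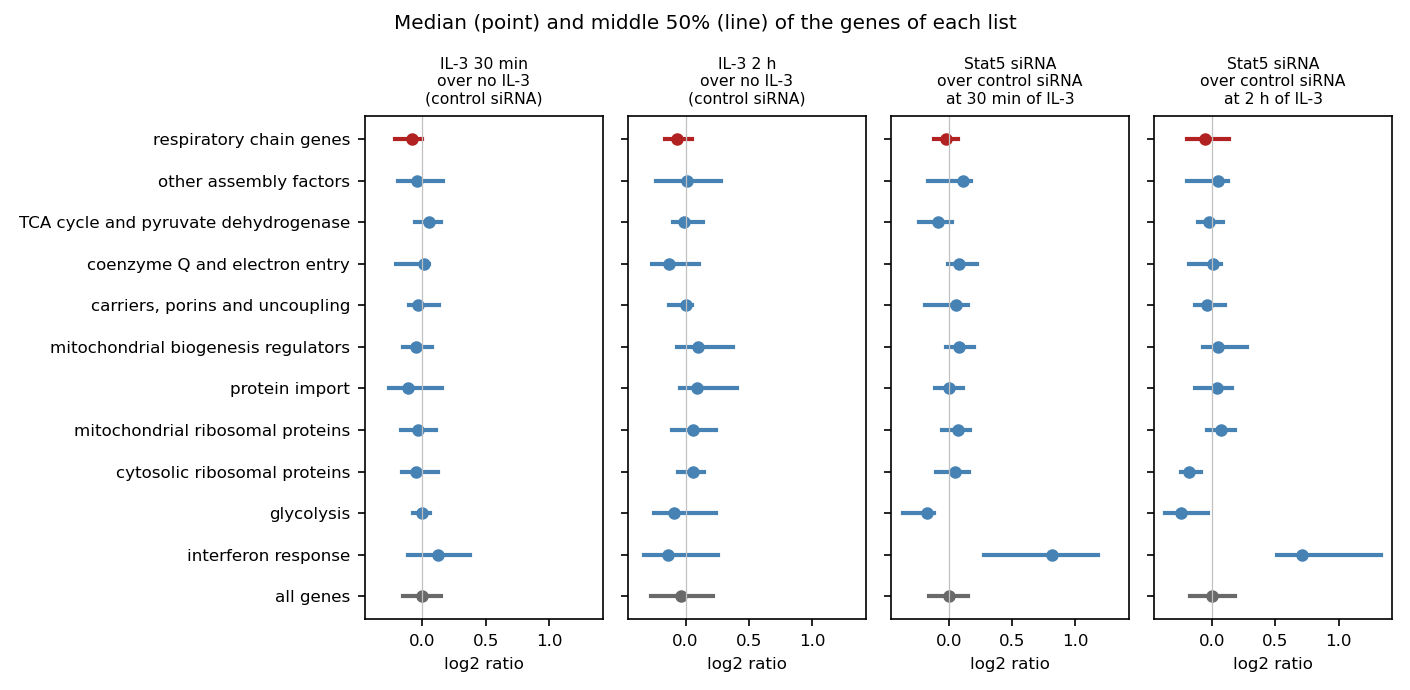
Median log2 ratio (points) and middle 50% of genes (lines) of the respiratory chain genes (red), 10 other gene lists (blue) and all genes (grey) in 4 comparisons. The respiratory chain medians lie between -0.08 and -0.02, and the interferon response list is at 0.82 and 0.71 with Stat5 siRNA.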

How the data were processed

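Total RNA of each condition was labelled and hybridised to the 3 Affymetrix murine U74 arrays. The deposited values are linear probe set intensities (signals), which the authors computed with MAS5 per the submitters' processing notes. Their trimmed mean lay between 150.0 and 150.1 on all 15 arrays. Conditions were taken from the sample titles. Each array was rescaled to a common trimmed mean (2% left out at each end). The floor of 119.9 is the signal that 14553 of 36701 non-control probe sets reached on their highest array, the number that the design text says passed the authors' filters, since detection calls were not used here. Probe sets whose suffix (_f_at, _i_at, _r_at, _x_at) marks possible cross-hybridisation were used for a gene only where no other was measured. Genes were named from the platform annotation, and 16 probe sets naming a member among several genes were left out.

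The array number limits precision: no condition has a replicate, so ratios are descriptive, calls at 1.5-fold and 2-fold are selections by size, and no test was run. The ratios of labelling controls, 3′ over 5′ end, lay between 1.0 and 1.19 for actin, 0.728 and 0.858 for Gapdh and 2.64 and 5.49 for Tfrc. On U74A the Tfrc ratio was highest without IL-3, at 4.47. It was 2.89 with Stat5 siRNA and 3.56 with control siRNA at 30 min, and 2.64 with Stat5 siRNA and 3.44 with control siRNA at 2 h. On U74B and U74C another array was the highest. The part of these differences in the ratios of members was not tested. Named are members past 2-fold, the 5 largest rises and falls per comparison, the 2 brightest of each complex, and isoform pairs; of the 3 largest ratios per other list only part is named; a few more, among them subunits given for their role, were chosen after their values were seen. The 1.2-fold limit for closeness to no IL-3 was also set after the values were seen, in place of a 1.25-fold limit used first, under which 87.0% of members and 60.9% of all genes lay at 2 h. Members and lists were chosen with earlier results of these data known. The ratio script was tested on simulated data. Scripts used Python 3.11.15, numpy 2.4.6, pandas 2.3.3, scipy 1.17.1 and matplotlib 3.10.9. The 10 alternatives tried changed scaling, floor, probe sets and gene value.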

Additional observations from a re-analysis of the deposited data

Results flagged for a closer look

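Ndufb3 had Stat5 siRNA ratios of opposite sign at the 2 times, with a log2 ratio of -0.42 at 30 min of IL-3 and 0.54 at 2 h. Its signals were 1034 with Stat5 siRNA and 1379 with control siRNA at 30 min, and 1279 with Stat5 siRNA and 879 with control siRNA at 2 h. It was singled out because each ratio was larger than the spread between probe sets of the same gene. That spread is 1 SD, and Ndufb3 was among the 5 largest falls at 30 min and the 5 largest rises at 2 h. For a gene picked as an extreme of the members, passing 1 SD does not set it apart from measurement spread. The difference between the times was not tested, as there is 1 array per condition and 1 measured probe set.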

How the results depend on the processing

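With 1 array per condition no replicate could be left out. No paired analysis was possible because no condition has a replicate. The member median minus that of all genes moved by under 0.1 in all 60 recomputed values. That limit is larger than the difference itself in every comparison, so it cannot show stability. With Stat5 siRNA at 2 h the medians were -0.056 (members) and 0.004 (all genes), and 0.039 and 0.05 with median scaling. For 2 h over 30 min in Stat5 siRNA cells they were 0.023 and -0.02, and 0.17 and 0.04 with median scaling. Leaving out the rescaling could hardly move a value, as the deposited trimmed means were nearly equal. Of 397 values of single genes 379 moved by less than the spread between probe sets, 18 by more, and 0 reversed. No scaling moved the median of all genes by more than 0.06. Of 240 recomputed member counts 205 stayed within 1.5 times, and the other 35 were counts of 5 or fewer. For 30 min over no IL-3 the 1 member 1.5-fold or more higher became 3 with the floor halved, 2 without raising signals to the floor, and 0 with the floor doubled, without cross-hybridising probe sets or on U74A and U74B alone. The 1 lower became 2 with quantile normalization or the floor halved and 0 without cross-hybridising probe sets. For 2 h over no IL-3 the 1 higher became 5 with median scaling and 0 with the floor doubled, and the 2 lower became 0 with the floor doubled and 1 on U74A and U74B alone or with the brightest probe set. At 2-fold, the 1 higher became 0 with the floor doubled and the 0 lower became 1 with the floor halved or signals not raised. With Stat5 siRNA at 30 min the 1 higher became 3 with the floor halved or not raised to and 0 on U74A and U74B alone. At 2 h the 0 higher became 2 with median scaling or the floor halved and 1 without raising or with a floor per design. For 2 h over 30 min in control cells the 2 higher became 1 with quantile normalization, the floor halved or doubled, the 1 lower became 4 with the floor halved and 2 without raising, and the 1 past 2-fold became 0 with the floor doubled. In Stat5 siRNA cells the 1 higher became 2 with median scaling, the floor halved, signals not raised or a floor per design, and the 0 lower became 1 with the floor halved or not raised to. The cause was not tested. Counts by complex and for the highest condition were recomputed under alternatives chosen after seeing the data. Signals near the floor limit Ndufaf4, Cycs and the other dim members.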
